A study of Mus musculus with 7 samples.

Results

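The contacts of the *Gata3* promoter were compared between WT naive CD4+ T cells and WT Th0 cells, using the significant interacting regions called from 4C-seq libraries with *Gata3*-TSS as bait. Every region of either list was taken, which gave 449 of the 1153 regions in the 7 lists of the series, 277 from naive cells and 172 from Th0 cells. A region was classed as shared when it overlapped a region of the other list by at least 1 base, and otherwise as found in one list only, with chromosome 2, which carries the bait, kept apart from the other chromosomes.

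The resting sample was of naive CD4+ T cells, purified by kit from the spleens and lymph nodes of WT mice. Th0 cells were the same cells after 3 d of stimulation through CD3 and CD28 (antibody to CD3ε bound to the plate, antibody to CD28 in solution). No cytokine and no blocking antibody was added. The comparison is thus one of activation without added IL-4, and any IL-4 from the cells was not blocked. Both conditions had 1 library, and the sources used here do not give the number or sex of the animals. Lists from WT Th2 cells (the same stimulation with IL-4 and anti-IFN-γ for 3 d), from mG900KO Th2 cells, which lack the mG900 enhancer region downstream from *Gata3*, and from 3 WT libraries with a bait inside mG900 were used to ask where a region was called again, and for a few counts set beside those of the naive and Th0 lists. The lists hold positions and no reads, so the depth of each library is unknown, no difference between the conditions could be tested, and the labelled cell types could not be checked against marker genes.

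GATA3 is a transcription factor that thymocytes need to become CD4+ T cells. Naive CD4+ T cells keep it at a low level, and signalling through IL-4 and STAT6 raises it in Th2 cells, where it acts on the *Il4*-*Il5*-*Il13* locus. *Gata3* lies beside a long stretch without protein-coding genes that holds several of its enhancers, and 4C-seq records which parts of the genome were ligated to the bait more often than the surroundings. Stimulation through the T cell receptor and CD28 takes a resting naive cell into growth and division, with or without IL-4.

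*Gata3* is transcribed from the minus strand of chromosome 2, and its TSS was taken at position 9878600 of GRCm38 (mm10), so that regions downstream have lower coordinates. The 250 bases before the TSS (chr2:9878601-9878850, minus strand, RefSeq, GRCm38.p6) are shown as the promoter at the TSS taken here. The fragment that served as bait was not mapped. They are 70.0% G and C and hold 0 sites for NlaIII, the enzyme of the first digestion, which recognizes CATG, so this stretch lies within 1 NlaIII fragment.
Gata3 promoter: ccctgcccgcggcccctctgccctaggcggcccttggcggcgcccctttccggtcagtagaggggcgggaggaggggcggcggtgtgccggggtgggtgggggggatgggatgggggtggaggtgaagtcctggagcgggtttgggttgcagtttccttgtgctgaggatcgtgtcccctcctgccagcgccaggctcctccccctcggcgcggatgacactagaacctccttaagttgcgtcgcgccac

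The borders of the regions are NlaIII sites. Of the 898 starts and ends in the naive and Th0 lists, 860 (95.8%) fell on CATG to the base, all 564 of those on other chromosomes and 296 of the 334 on chromosome 2. The first or last 40 bases of the regions within 2 Mb of the TSS that were found in one list only are given below for the 6 nearest to the TSS, because they fix where the lists parted (plus strand, GRCm38, NlaIII site in capitals). Of the 12 borders shown, 4 lie 1 or 2 bases outside the site.
Naive only, 161 kb upstream, chr2:10039716-10039755: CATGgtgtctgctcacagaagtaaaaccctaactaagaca
Naive only, 161 kb upstream, chr2:10053722-10053761: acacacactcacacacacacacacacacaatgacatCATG
Naive only, 214 kb downstream, chr2:9652484-9652523: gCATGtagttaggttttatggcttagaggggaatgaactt
Naive only, 214 kb downstream, chr2:9664270-9664309: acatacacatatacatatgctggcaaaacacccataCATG
Naive only, 468 kb downstream, chr2:9399301-9399340: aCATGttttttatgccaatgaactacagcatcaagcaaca
Naive only, 468 kb downstream, chr2:9410248-9410287: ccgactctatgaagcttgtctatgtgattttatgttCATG
Th0 only, 685 kb downstream, chr2:9184236-9184275: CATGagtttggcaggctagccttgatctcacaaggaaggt
Th0 only, 685 kb downstream, chr2:9193731-9193770: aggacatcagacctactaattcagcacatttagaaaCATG
Th0 only, 960 kb downstream, chr2:8901631-8901670: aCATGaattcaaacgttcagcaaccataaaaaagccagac
Th0 only, 960 kb downstream, chr2:8918828-8918867: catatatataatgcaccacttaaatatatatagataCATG
Naive only, 1069 kb downstream, chr2:8796099-8796138: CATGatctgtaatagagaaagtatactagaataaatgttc
Naive only, 1069 kb downstream, chr2:8809700-8809739: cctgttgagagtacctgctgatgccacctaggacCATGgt

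On chromosome 2 the naive list was the longer one, with 99 regions against 68 in the Th0 list. Of the naive regions, 43 (43.4%) were shared and 56 were found in the naive list only. Of the Th0 regions, 41 (60.3%) were shared and 27 were found in the Th0 list only. The naive regions covered 1.64 Mb and the Th0 regions 1.12 Mb, and the bases in both lists, 0.678 Mb, were 32.6% of the bases in either (the Jaccard index). On the other chromosomes 33 of 178 naive regions (18.5%) and 34 of 104 Th0 regions (32.7%) were shared, and the Jaccard index was 11.8%. Shared contacts were thus a smaller share of either list away from the bait chromosome, and the naive list was the longer one in both places. The shares are not on one scale, since the smallest regions spanned 51 NlaIII sites on chromosome 2 and 501 elsewhere. On chromosome 2 they also went with distance. Beyond 10 Mb from the TSS, 13 of 55 naive (23.6%) and 12 of 28 Th0 regions (42.9%) were shared.

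Close to the gene most regions were in both lists. Within 2 Mb of the TSS, 20 of 26 naive regions (76.9%) and 19 of 23 Th0 regions (82.6%) were shared, and the map of this window shows where they lie. Beyond 2 Mb the shares were 23 of 73 (31.5%) and 22 of 45 (48.9%).

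**Figure D1:**
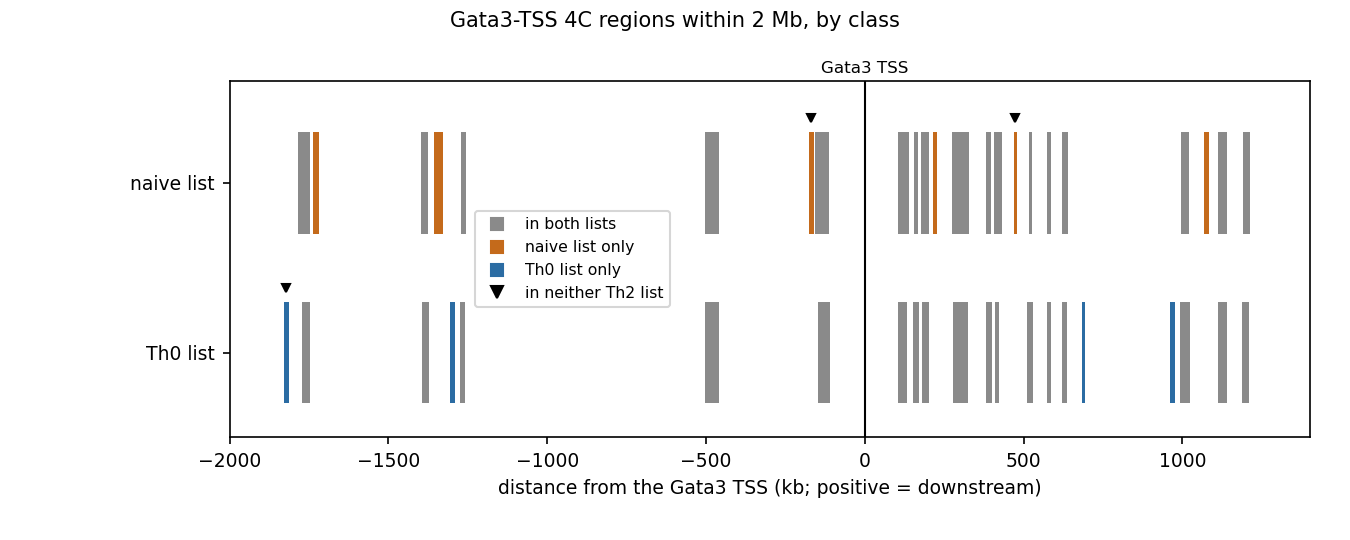
Positions of the regions within 2 Mb of the Gata3 TSS, with distance from the TSS in kb on the x axis (downstream is positive) and one row per list. Grey bars are regions in both lists, orange bars the 6 regions in the naive list only, blue bars the 4 regions in the Th0 list only, and triangles mark the 3 of these 10 that were in neither Th2 list of the same bait.

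Downstream from *Gata3* the next protein-coding gene in the GENCODE annotation is *Celf2*, 2369 kb away. In this interval without protein-coding genes 17 naive and 15 Th0 regions were called within 2 Mb, of which 14 and 13 were shared. The nearest region ended at the same base in both lists, 104 kb from the TSS, and ran for 10.4 kb in naive cells and 10.0 kb in Th0 cells. A further shared region 178 kb downstream in naive cells and 179 kb in Th0 cells began at the same base in both.

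TCE7.1, an enhancer of *Gata3* in T cells, was covered over 100% of its length in naive cells and over 100% in Th0 cells. The region that holds it was the longest of the Th0 list within 2 Mb, at 47.9 kb, and began 277 kb from the TSS. In naive cells the same stretch was split by a gap of under 1 kb into regions of 33.4 kb, 275 kb from the TSS, and 20.2 kb, 309 kb from the TSS. The *Gata3* promoter thus had the same called contact with TCE7.1 before and after activation.

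Elsewhere downstream the lists parted at single regions. In naive cells only, regions were called 214 kb (11.8 kb long), 468 kb (10.99 kb long) and 1069 kb (13.6 kb long) from the TSS. In Th0 cells only, regions were called 685 kb (9.54 kb long) and 960 kb (17.2 kb long) from the TSS. The Th0 region at 685 kb covered 10.6% of the interval in which an enhancer of *Gata3* active in group 2 innate lymphoid cells has been placed, and the naive list covered 0% of it, with its nearest region 33.3 kb away. The mG900 interval that is deleted in mG900KO mice was covered over 0% of its length in both lists. The nearest Th0 region, the one at 960 kb, lay 17.2 kb from it, and the nearest naive region lay 54.5 kb from it.

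These single regions were looked for in the other lists of the same bait. The naive region at 214 kb was called again in both Th2 lists, although not in Th0 cells, and that at 1069 kb was called again in WT Th2 cells. The naive region at 468 kb was called in neither Th2 list. The Th0 region at 960 kb was called again in both Th2 lists, and that at 685 kb in mG900KO Th2 cells alone. Of the 5 downstream regions found in one list only, 4 were therefore called again in Th2 cells.

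Upstream from *Gata3*, most regions of both lists within 2 Mb fell on a few genes. Shared regions with no protein-coding gene lay 460 kb and 1254 kb upstream in naive cells, and both were called again in both Th2 lists. *Taf3*, which encodes a subunit of the TFIID complex, held the nearest upstream region in both lists, at 112 kb in naive cells (45.6 kb long) and at 110 kb in Th0 cells (37.2 kb long). A separate naive region of 14.0 kb, 161 kb upstream, held the 5′ end of *Taf3* and was called in neither the Th0 list nor a Th2 list. At *Sfmbt2*, a Polycomb group gene, the same region of 22.6 kb was called in both lists with identical borders (chr2:10358774-10381345), 480 kb upstream.

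*Prkcq* encodes PKCθ, the kinase that links the T cell receptor and CD28 to NF-κB. Both lists held a region in the body of *Prkcq*, 1374 kb upstream in naive cells (23.8 kb long) and 1371 kb upstream in Th0 cells (24.1 kb long). Each list also held a region of *Prkcq* that the other lacked. In naive cells this was a region of 28.4 kb inside the gene, 1328 kb upstream, and in Th0 cells a region of 17.1 kb that held the gene's 5′ end, 1289 kb upstream. Both of these were called again in both Th2 lists.

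*Il2ra* encodes CD25, the high-affinity chain of the IL-2 receptor, which activated T cells display. Its 5′ end lay in a shared region, of 37.5 kb in naive cells and 25.4 kb in Th0 cells, so this contact was called before and after activation. In Th0 cells only, a region of 17.1 kb, 1813 kb upstream, covered the 3′ end of *Il2ra* (3.61% of the gene) and the 5′ end of *Il15ra*, the receptor chain for IL-15. It was called in neither Th2 list. In naive cells only, a region of 17.8 kb, 1719 kb upstream, held the 5′ end of *Rbm17*, a splicing factor gene, and it was called again in WT Th2 cells.

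Far from the TSS a smaller share of the regions was shared, with exceptions between neighbouring intervals. In the naive list the share was 78.6% within 0.5 Mb, 100% at 0.5 to 1 Mb, 62.5% at 1 to 2 Mb, 66.7% at 2 to 5 Mb, 44.4% at 5 to 10 Mb, 29.2% at 10 to 50 Mb, 29.4% at 50 to 100 Mb and 7.14% (1 of 14 regions) beyond 100 Mb. In the Th0 list it was 100%, 66.7%, 71.4%, 62.5%, 55.6%, 46.2%, 55.6% and 16.7% (1 of 6 regions) in the same intervals. The regions were also densest near the TSS, where an overlap is likelier. The naive list held 14.0 regions per Mb within 0.5 Mb and 0.195 beyond 100 Mb, and the Th0 list 10.0 and 0.0837. The longer naive list came from far regions, since 44 naive and 40 Th0 regions lay within 10 Mb, against 55 and 28 beyond. The TSS lies under 10 Mb from the start of the chromosome, so all regions beyond 10 Mb are upstream. The median distance of shared regions was 3.15 Mb in the naive list and 3.16 Mb in the Th0 list, and that of regions found in one list only was 48.7 Mb and 21.6 Mb.

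**Figure D2:**
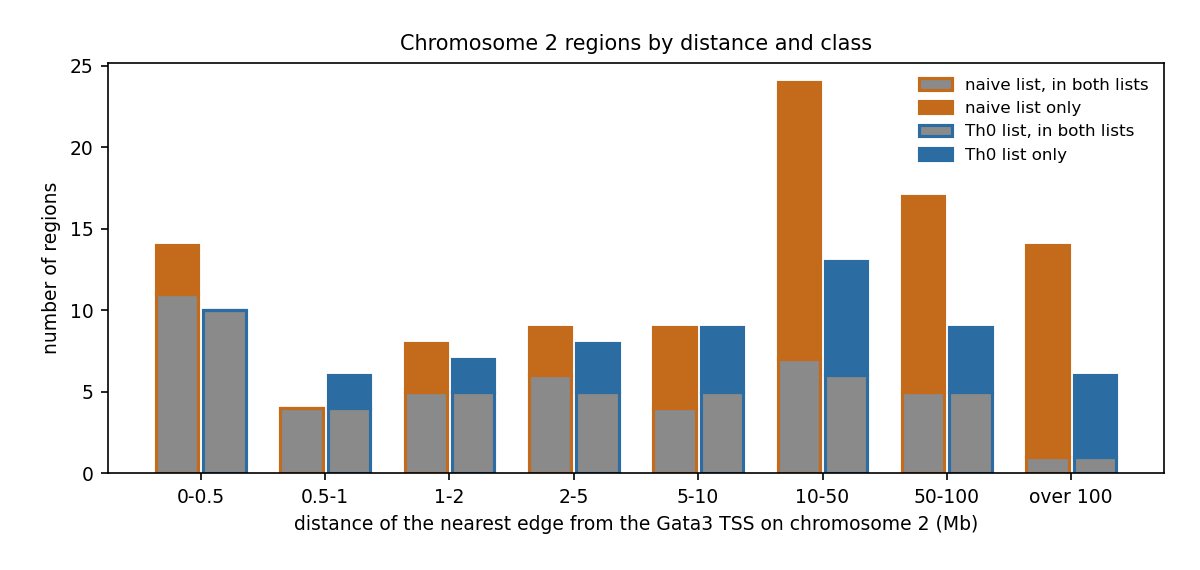
Number of chromosome 2 regions (y axis) by distance of the nearest edge from the Gata3 TSS in Mb (x axis), with the naive list on the left and the Th0 list on the right of each pair. Grey parts are regions in both lists and coloured parts regions in one list only, which make up 13 of 14 naive and 5 of 6 Th0 regions beyond 100 Mb.

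Where a region was shared, its borders were often the same or close. On chromosome 2, 36 pairs matched one to one, and 17 of them had the same start or the same end to the base. In 3 pairs both borders were the same. These were the *Sfmbt2* region, a region of 9.20 kb that lies 3671 kb upstream (chr2:13549381-13558576), and a region of 16.3 kb that lies 122.7 Mb upstream (chr2:132612536-132628826), the farthest shared region of the chromosome. The naive region was the longer one in 22 pairs and the Th0 region in 11, and the median difference was -0.84 kb (Th0 minus naive). On the other chromosomes 11 of 32 one-to-one pairs had both borders the same, and the Th0 region was the longer one in 13 pairs and the naive region in 8.

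Beyond 2 Mb the longest shared regions of the naive list lay at *Fam107b* (28.9 kb), *Camk1d* (25.6 kb), *Cobll1* (25.5 kb), *Celf2* (24.7 kb) and at *Rc3h2*, *Zbtb6* and *Zbtb26* (24.03 kb). In Th0 cells the *Celf2* region was 29.3 kb and the *Rc3h2* region, which also took in *Rabgap1*, was 28.9 kb. CELF2 is an RNA-binding protein that regulates splicing in T cells, and *Rc3h2* encodes roquin-2, which promotes the decay of mRNAs of T cell activation. *Camk1d* encodes a calmodulin-dependent kinase, and its region was 13.3 kb long in Th0 cells.

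The longest naive regions beyond 2 Mb with no Th0 counterpart lay at *Nsun6* and *Arl5b* (25.3 kb), *Ly75* (21.6 kb), in a stretch with no protein-coding gene 35.1 Mb upstream (21.2 kb), at *Stk39* (21.1 kb) and at *Pip4k2a* (19.1 kb). Of these, only the *Nsun6* region was called again in the Th2 lists. The longest in the Th0 list only lay at *Atrn* (19.96 kb), in 2 stretches with no protein-coding gene (18.0 and 17.2 kb), at *Fam227b* (16.6 kb) and at *Cdc123* and *Nudt5* (16.5 kb). CDC123 is an assembly factor of the translation initiation complex eIF2 and NUDT5 a nucleotide hydrolase, and their region lay 4025 kb downstream and was called again in mG900KO Th2 cells. The farthest regions found in one list only held *Ctsz*, 164.6 Mb upstream in naive cells, and *Cass4*, 162.5 Mb upstream in Th0 cells.

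Genes of T cells and of the *Gata3* neighbourhood were followed through gene lists, which were chosen with earlier results of these data known. On chromosome 2, 74 of 1843 protein-coding genes (4.02%) lay in a naive region by at least 1 base and 48 (2.6%) in a Th0 region, with 28 in both. Of 14 genes of T cell receptor signalling and activation on this chromosome, 4 lay in a naive region (*Il2ra*, *Prkcq*, *Plcg1* and *Traf1*) and 3 in a Th0 region (*Il2ra*, *Prkcq* and *Il15ra*). *Plcg1*, which encodes phospholipase Cγ1, and *Traf1*, an adaptor of TNF receptors, lay 150.9 Mb and 25.1 Mb upstream, and neither region was in a Th2 list. *Il2ra*, *Il15ra* and *Prkcq* are also neighbours of *Gata3*, so their distance to the bait differs from that of the other members.

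The list labelled naive state had 3 genes on chromosome 2. Of these, *Itga6*, an integrin chain, lay in a naive region and *Zeb2*, a repressor of the ZEB family, in a Th0 region, each in that list only. No expression was measured, so membership of this list does not show that a gene is active in naive cells. The *Zeb2* region was called again in WT Th2 cells. Of 12 genes of proliferation, *Gins1*, a subunit of the replicative helicase, lay in a naive region and 0 lay in a Th0 region. Of 23 annotated neighbours of *Gata3*, 8 lay in a naive and 10 in a Th0 region, 7 of them in both. *Usp6nl* was counted in both, through different regions, of 14.1 kb at its 5′ end in naive cells and of 10.5 kb in Th0 cells, 19.9 kb apart.

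Whether a region was shared went with whether it was called again in Th2 cells, in lists that had no part in the classes. On chromosome 2, 37 of 43 shared naive regions (86.0%) and 35 of 41 shared Th0 regions (85.4%) lay in the WT Th2 or the mG900KO Th2 list. Of the regions found in one list only, 8 of 56 naive regions (14.3%) and 12 of 27 Th0 regions (44.4%) did. Coverage by the Th2 lists itself fell with distance. Together they covered 17.5% of the bases within 2 Mb, 2.64% of those at 2 to 10 Mb and 0.416% of those beyond. Beyond 10 Mb, 9 of 13 shared naive and 9 of 12 shared Th0 regions were called again, against 3 of 42 regions of the naive list only and 5 of 16 of the Th0 list only.

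The higher count for the Th0 list only rested on mG900KO Th2 cells. That list held 11 of the 27 regions, against 5 of the 56 regions of the naive list only. The WT Th2 list alone held 5 of 27 (18.5%) and 7 of 56 (12.5%). With the mG900 bait, 20 of 43 shared naive regions and 9 of 56 regions of the naive list only were called in at least 1 of 3 lists. For the Th0 list the counts were 16 of 41 and 2 of 27. These counts also went with distance. Within 2 Mb they were 12 of 20 shared and 4 of 6 other naive regions, and 10 of 19 shared and 2 of 4 other Th0 regions. Beyond 2 Mb they were 8 of 23 and 5 of 50 in the naive list, and 6 of 22 and 0 of 23 in the Th0 list.

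**Figure D3:**
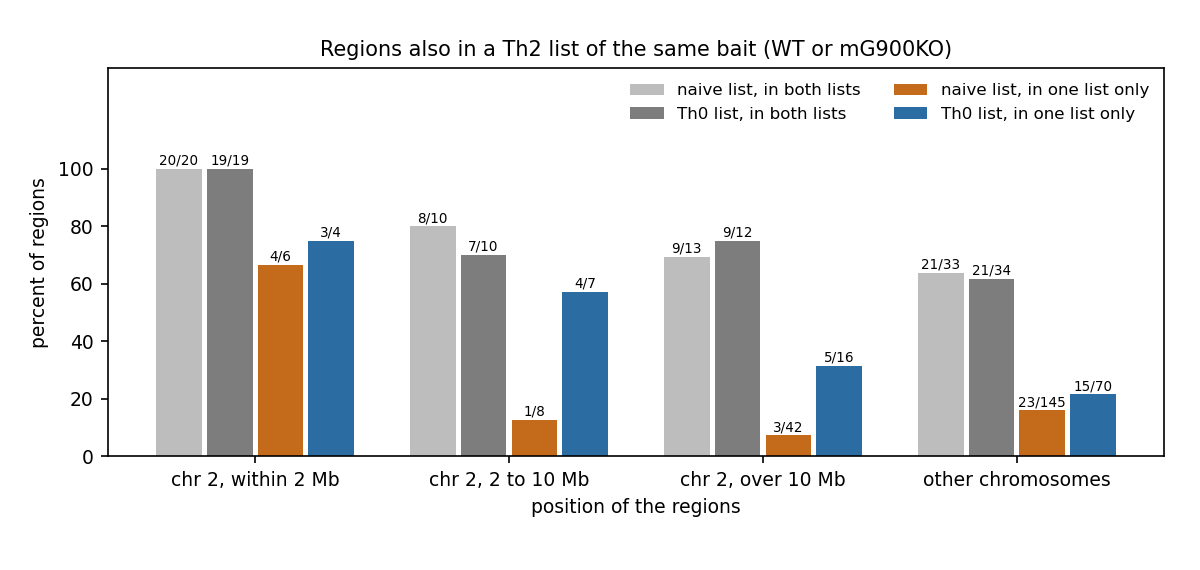
Percent of regions (y axis) that were also in the WT Th2 or mG900KO Th2 list of the Gata3-TSS bait, by position (x axis) and class, with the number of regions above each bar. Beyond 2 Mb and on the other chromosomes the grey bars of shared regions stand above the coloured bars of regions in one list only, and within 2 Mb most regions of either class were called again.

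Shared naive regions tended to be the longer ones. On chromosome 2 the median length was 17.1 kb for shared and 13.8 kb for other naive regions, and 15.7 kb for shared and 15.3 kb for other Th0 regions. The smallest regions spanned 51 NlaIII sites, and 14 of the 56 regions of the naive list only had that size, against 3 of 43 shared naive regions. The regions of the naive list only held 62.4 protein-coding genes per Mb and those of the Th0 list only 65.4, against 33.4 and 35.3 for shared regions and 10.3 for the chromosome. A gene was counted when any part of it lay in a region, which raises such densities for short regions. The classes also differed in position. Within 2 Mb downstream, where there is no protein-coding gene, lay 14 of 43 shared naive and 13 of 41 shared Th0 regions. Of the regions in one list only, 3 of 56 and 2 of 27 lay there. What part position had in the densities was not tested. G and C made up 41.6% of shared and 43.1% of other naive regions, and 42.1% of the chromosome.

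On the other chromosomes the regions were longer, with medians of 131 kb in the naive and 130 kb in the Th0 list. In the naive list 448 of 20095 protein-coding genes (2.23%) lay in a region, and in the Th0 list 265 (1.32%), with 79 in both. Of 102 genes in the lists of the Th2 program, the Th1 program, T cell receptor signalling and activation, the naive state and proliferation, 10 (9.80%) lay in a naive region and 2 (1.96%) in a Th0 region. Both of the latter, *Cd3e* and *Ikzf1*, also lay in naive regions, so 0 of the 102 genes lay in a Th0 region alone. Of all protein-coding genes there, 186 of 20095 (0.926%) did, so a count of 0 among 102 genes is near that share. These lists were chosen with earlier results of these data known, so the percentages are not a test against all genes.

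Among 35 genes of T cell receptor signalling and activation outside chromosome 2, 6 lay in naive regions. *Cd3g*, *Cd3d* and *Cd3e*, the genes of the CD3 chains, lay together in 1 naive region of 220 kb on chromosome 9 (chr9:44940613-45160803). The Th0 region there was 152 kb long, ended at the same base and held the 5′ end of *Cd3e*, but neither *Cd3d* nor *Cd3g*. *Cd28*, the costimulatory receptor, and *Ctla4*, its inhibitory relative, lay in separate naive regions of 147 kb and 108 kb on chromosome 1. *Fosl2*, of the AP-1 family, lay in a naive region of 119 kb on chromosome 5. The nearest Th0 regions to the last 3 genes lay 11050 kb (*Fosl2*) to 13847 kb (*Cd28*) away.

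Among 20 genes of the naive state, 3 lay in naive regions. *Tcf7* and *Lef1* encode the partner transcription factors TCF-1 and LEF1 of naive and memory T cells, and they lay in naive regions of 210 kb on chromosome 11 and 155 kb on chromosome 3 that had no Th0 counterpart. *Ikzf1*, which encodes Ikaros, lay in the longest region of the naive list (313 kb, chr11:11644362-11957144), and a Th0 region of 152 kb overlapped it and held the 5′ end of the gene. Of 23 genes of the Th2 program, *Il10* lay in a naive region of 134 kb on chromosome 1 and 0 lay in a Th0 region. The *Il4*-*Il5*-*Il13* locus lay in neither list, and the nearest regions to *Il13* were 1157 kb away in naive and 1471 kb away in Th0 cells. None of the 15 genes of the Th1 program and none of the 9 of proliferation lay in a region of either list.

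**Figure D4:**
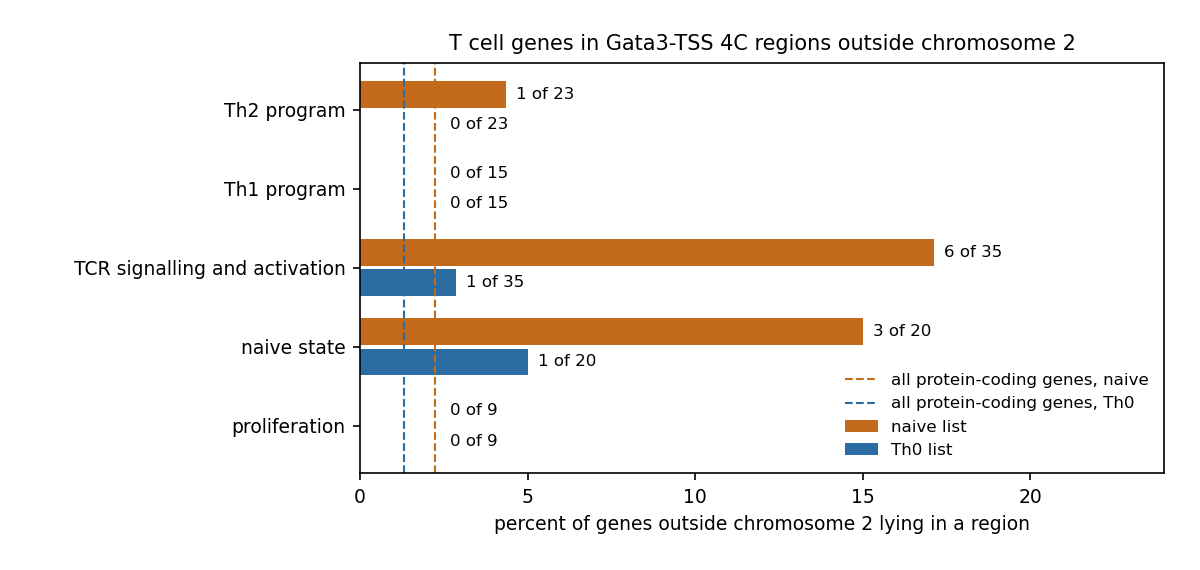
Percent of the genes of each list outside chromosome 2 (x axis) that lay in a naive (orange) or Th0 (blue) region, with counts beside the bars and dashed lines at the percent of all protein-coding genes. T cell receptor signalling (6 of 35 genes), the naive state (3 of 20) and the Th2 program (1 of 23) stand above the naive dashed line, and T cell receptor signalling and the naive state, with 1 gene each, above the Th0 line.

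The 10 genes lay in 8 naive regions, and all 10 had their 5′ end inside. Of the 6 naive regions that held such a gene and had no Th0 counterpart, 5 were called again in a Th2 list of the same bait: *Tcf7* in both lists, *Ctla4* and *Fosl2* in WT Th2 cells, and *Cd28* and *Lef1* in mG900KO Th2 cells. The *Il10* region was called in neither. Of the 119 naive regions that had no Th0 counterpart and held other protein-coding genes, 16 (13.4%) were called again. In the WT Th2 list 4 of the 102 genes lay in a region, against 0.911% of all protein-coding genes, and in the mG900KO Th2 list 5 of 102, against 1.22%. In the Th0 list it was 2 of 102 (1.96%), against 1.32%. The Th0 count was the lowest, but the counts are small and each has 1 library behind it.

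Cut to its 104 longest regions outside chromosome 2, the size of the Th0 list, the naive list held 8 of the 102 genes (7.84%), without *Ctla4* and *Fosl2*. This cut favours long regions, and the naive regions with a gene of the lists were the longer ones. Their median was 141 kb for those of the naive list only, against 129 kb for the regions with other genes. For shared naive regions it was 266 kb, from 2 regions, against 133 kb. What part the size of the list had in the counts was therefore not tested. The genes of the lists are not independent of each other, since some are neighbours in the genome, such as the CD3 genes.

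Outside chromosome 2 the longest regions of the naive list only lay at *Id3*, *E2f2*, *Asap3*, *Tcea3* and *Zfp46* (232 kb, chromosome 4), at *Keap1*, *S1pr5*, *Atg4d*, *Kri1* and *Cdkn2d* (229 kb, chromosome 9), at *Tcf7*, *Skp1a* and *Vdac1* (210 kb), at *Akap13* (194 kb, chromosome 7) and at *Larp6* and *Uaca* (180 kb, chromosome 9). ID3 is an inhibitor of E proteins that is present in naive T cells, and *E2f2* encodes a cell cycle regulator of the E2F family. The longest of the Th0 list only lay at *Rps6ka4*, *Ccdc88b*, *Prdx5*, *Trmt112* and *Esrra* (286.8 kb, chromosome 19), at *Dock2* (234 kb, chromosome 11), at *Meis3*, *Dhx34*, *C5ar2*, *C5ar1* and *Inafm1* (220 kb, chromosome 7), in a stretch with no protein-coding gene on chromosome 6 (174 kb), and at *Elk1*, *Uxt*, *Zfp182*, *Spaca5* and *Zfp300* (164 kb, X chromosome). DOCK2 is an activator of Rac in lymphocyte migration, and *Elk1* encodes a transcription factor that ERK phosphorylates. None of these 5 Th0 regions was in a Th2 list, and of the 5 naive regions the *Tcf7* region was in both and the *Keap1* region in WT Th2 cells.

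The longest shared regions of the naive list, after *Ikzf1*, lay at *Sfi1*, *Drg1*, *Eif4enif1*, *Patz1* and *Pik3ip1* (223 kb, chromosome 11), at the CD3 genes, at *Arhgap26* and *Fgf1* (194 kb, chromosome 18) and at *Pde7a* (168 kb, chromosome 3). The *Pde7a* region, at a gene for a cAMP phosphodiesterase of T cells, had the same borders in both lists. In the Th0 list 4 of the 5 longest shared regions lay at *Gm21738* (193 kb, chromosome 14), at *Tprg* (180 kb, chromosome 16), at *Pde7a*, and at *Cnot4* and *Nup205* (161 kb, chromosome 6).

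Outside chromosome 2, 8 loci were called in all 4 lists of the *Gata3*-TSS bait. Of these, 2 were also called in all 3 lists of the mG900 bait, one beside the start of the assembled chromosome 9 and the other at *Sfi1* and *Drg1* on chromosome 11. The rest lay at *Cnot4* and *Nup205* (chromosome 6), at *Rexo2*, *Rbm7* and Nnmt (chromosome 9), at *Dusp22*, a phosphatase of T cell receptor signalling (chromosome 13), at *Gm21738* and in a stretch with no protein-coding gene (both chromosome 14), and at *Igf2r* and Mas1 (chromosome 17). The genes are those of the span joined over the lists, and not every list reached each gene. Nnmt and Mas1 lay in no naive or Th0 region, and *Nup205* lay in a Th0 region but in no naive region. Of the rest, the *Gm21738* locus was called in 2 lists of the mG900 bait, and the others in 0. Calls at *Sfi1* and at *Gm21738* were thus not particular to the *Gata3*-TSS bait. Shared regions outside chromosome 2 were called again in a Th2 list in 21 of 33 cases for the naive list and 21 of 34 for the Th0 list. For regions in one list only the counts were 23 of 145 (15.9%) and 15 of 70 (21.4%).

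The regions were spread over the chromosomes differently. The naive list held more regions than the Th0 list on 16 of the 18 other autosomes, with the widest gap on chromosome 5 (12 against 1), and chromosome 15 had 6 naive and 0 Th0 regions. The Th0 list held more on chromosome 18 (8 against 5) and chromosome 19 (10 against 2). On the X chromosome, which makes up 6.62% of the assembled bases outside chromosome 2, the naive list held 0 of its 178 regions and the Th0 list 8 of 104 (7.69%). The WT Th2 and mG900KO Th2 lists held 6 and 10 regions on X, and the lists of the mG900 bait held 1 each. X stands last in the files, and whether the deposited naive list is complete there was not settled, so Th0 regions on X are in the Th0 list only in that sense. Without X, 34 of 96 Th0 regions outside chromosome 2 (35.4%) were shared and 14 of 62 regions of the Th0 list only (22.6%) were called again. Whether the animals or the depth of the libraries had a part in these counts was not tested.

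**Figure D5:**
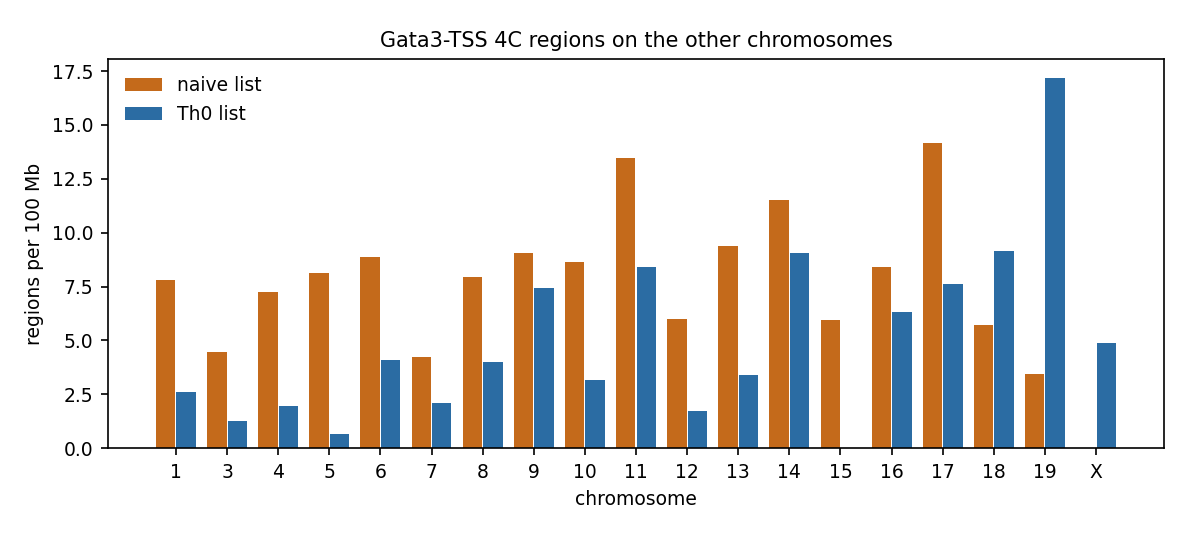
Regions per 100 Mb of assembled sequence (y axis) on each chromosome other than 2 (x axis) in the naive (orange) and Th0 (blue) lists. Orange bars are the taller ones on 16 of 18 autosomes, and blue bars on chromosomes 18, 19 and X, where the naive list has 0 regions.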

How the data were processed

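Naive CD4+ T cells and Th0 cells were analysed by 4C-seq with *Gata3*-TSS as bait, with 1 library per condition. The authors called significant interacting regions with w4Cseq and deposited a chromosome, a start and an end for each. The deposited values are positions in bases, and no normalized signal, count or score stands beside them. The genome build given in the submitters' processing notes is mm10, and the aligner is not given in the sources used here. The paper names BglII as the second enzyme for this bait and a NovaSeq, whereas the labels name DpnII and a NextSeq. How many regions are called can depend on depth, and a region absent from a list may lie just under the threshold, so calls are not strengths of contact.

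Regions were intersected with each other, with the GENCODE M21 genes of GRCm38 and with CATG sites. Groups followed the sample titles. The 155 genes in 6 lists were matched by symbol, and 1 (*Fbxo18*) was not found. The smallest regions outside chromosome 2 spanned 501 CATG sites, which is more than the minimum size in the study's methods, and the setting behind them was not settled. No test was made.

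The members and gene lists were chosen with earlier results of these data known. Named regions were all those within 2 Mb of the TSS, the 5 longest and the farthest of each class elsewhere on chromosome 2, the 5 longest of each class on other chromosomes, and the loci in all 4 lists of the bait there. Named genes were members of the lists and up to 5 genes of a named region, and some items under this rule are not reported here. Genes near regions by distance, and regions on single chromosomes, were named after their values were seen.

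Alternatives changed the overlap needed, joined regions, dropped the shorter ones, evened the list sizes, left out recurrent loci or the 2 Mb around the TSS, and counted genes otherwise. Those for the T cell gene lists and without the X chromosome were added after the data were seen. Interval functions were tested on 200 simulated pairs of lists, with 0 mismatches. The software was Python 3.11.15 with scipy 1.17.1, numpy 2.4.6 and, for plots, matplotlib 3.10.9.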

Additional observations from a re-analysis of the deposited data

Results flagged for a closer look

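The number of regions moved differently from naive to Th0 cells with each bait. Outside chromosome 2 it went from 178 to 104 with *Gata3*-TSS, a ratio of 0.584, and from 44 to 68 with mG900, a ratio of 1.55. On chromosome 2 it went from 99 to 68 with *Gata3*-TSS, a ratio of 0.687, and from 28 to 29 with mG900, a ratio of 1.04, which is a difference of 1 region. With 1 library per condition and bait, the difference was not tested.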

How the results depend on the processing

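A value was called moved when it left the exact 95% binomial interval of the original. The trials were regions, or genes where genes were counted. For the Jaccard index, a share of bases, the number of regions stood in for trials, so its interval is not a spread of that index. The intervals are a yardstick only, since neither regions nor genes are independent. Of 92 alternatives to the main shares, 79 stayed inside, among them the 7 without the X chromosome. The naive list holds 0 regions on X, so its shares and the recurrence of shared regions could not change without X. With the 2 Mb around the TSS left out, 31.5% of naive chromosome 2 regions were shared and the Jaccard index was 20.4%. With the naive list cut to the size of the Th0 list, 21.2% of Th0 regions outside chromosome 2 were shared. Among Th0 regions of at least the median length, 52.9% of those on chromosome 2 lay within 2 Mb, and the shared ones were called again in 95.2% on chromosome 2 and 80.0% elsewhere. With the WT Th2 list alone, recurrence on chromosome 2 was 69.8% (shared naive), 68.3% (shared Th0) and 18.5% (Th0 only). Elsewhere it was 36.4% and 35.3% for shared naive and Th0 regions, and 7.59% and 7.14% for the naive and Th0 list only. For genes in regions, 16 of 30 alternatives moved, through a 5′ end in place of the whole gene or all annotated genes. The T cell lists outside chromosome 2 stayed inside in every alternative run, at 7.84% to 10.8% (naive) and 1.96% (Th0). No paired analysis was possible because each condition has 1 library. Unknown depth limits every count of regions.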
